A study of Mus musculus with 4 samples.

Results

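Fc receptors bind the constant part of antibodies, and the genes examined here encode those of myeloid cells: Fcgr1, Fcgr2b, Fcgr3 and Fcgr4, which encode receptors for IgG, Fcer1g, which encodes the signalling chain that several of them share, and Fcgrt, which encodes the heavy chain of the neonatal Fc receptor. The 6 genes were taken by symbol, each from the probe annotated to that gene alone with the highest mean signal. A probe was found for 5 of the 6 genes, 1 probe each, among 13840 genes with such a probe. Fcer1g had none and was not analysed here. All 5 probes were among the brighter 50% of the array, which held 8445 genes.

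Transcripts were measured in marrow depleted of cells that carry surface markers of mature blood lineages. The arrays labelled Mtg16 null, here null arrays, came from female mice aged 8 to 12 weeks that lack Mtg16 (Cbfa2t3), which encodes a corepressor of transcription, and that had been backcrossed into C57BL/6 as far as N4. The wild-type arrays came from C57BL/6 females of the same age. Each array held RNA pooled from the femur and tibia marrow of 4 mice, and 2 arrays were run for each genotype, with 1 null and 1 wild-type array in each of 2 lots. No treatment was given in the labels, and any genome that the null mice kept from a starting strain cannot be told apart from the loss of Mtg16. The labels do not say whether the 2 arrays of a genotype came from separate pools, so the p-values cover the spread between these arrays alone, and that spread may be technical.

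IgG receptors divide by signal. Fcgr1, Fcgr3 and Fcgr4 are activating in mice: they rely on the Fcer1g chain, whose phosphorylated tyrosine motif recruits the kinase Syk. Fcgr2b is the inhibitory receptor, whose own motif recruits the lipid phosphatase Inpp5d (SHIP). Fcgrt pairs with beta-2 microglobulin and protects IgG and albumin from degradation. In lineage-negative marrow, an antibody that sees the products of Fcgr2b and Fcgr3 together is used to separate granulocyte and monocyte progenitors, which bind it strongly, from other myeloid progenitors.

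Fcgr2b, Fcgr4 and Fcgr3 lie next to each other on chromosome 1, in that order, and on the arrays Fcgr2b and Fcgr3 differed alike between genotypes while Fcgr4 differed by less. The 250 bases before the annotated start of each are shown because the 3 genes are direct neighbours (RefSeq, mouse assembly GRCm38.p6, 5′ to 3′ on the gene's strand). Capitals mark GAGGAA or its reverse complement TTCCTC, the core letters bound by the myeloid factor PU.1. The windows are chr1:170976072-170976321 on the minus strand for Fcgr2b, chr1:171018676-171018925 on the plus strand for Fcgr4 and chr1:171059404-171059653 on the minus strand for Fcgr3.
Fcgr2b: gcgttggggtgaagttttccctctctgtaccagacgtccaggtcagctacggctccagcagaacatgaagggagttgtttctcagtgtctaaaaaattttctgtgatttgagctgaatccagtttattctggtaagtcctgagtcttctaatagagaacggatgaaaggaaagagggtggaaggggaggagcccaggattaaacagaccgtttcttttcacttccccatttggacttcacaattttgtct
Fcgr4: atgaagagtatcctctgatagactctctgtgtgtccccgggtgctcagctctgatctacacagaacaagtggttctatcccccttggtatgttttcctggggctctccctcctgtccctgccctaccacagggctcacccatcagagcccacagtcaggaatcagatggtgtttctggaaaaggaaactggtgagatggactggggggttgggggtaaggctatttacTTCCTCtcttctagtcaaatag
Fcgr3: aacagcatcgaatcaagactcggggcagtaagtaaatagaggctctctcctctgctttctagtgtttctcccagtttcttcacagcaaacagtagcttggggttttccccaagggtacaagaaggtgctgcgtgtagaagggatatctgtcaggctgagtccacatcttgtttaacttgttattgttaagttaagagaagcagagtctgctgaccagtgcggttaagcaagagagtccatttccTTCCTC
The match began 22 bases before the start in Fcgr4 and 6 bases before it in Fcgr3, both on the opposite strand, and the Fcgr2b window held none. RefSeq has 2 starts for Fcgr3, and in the window of the other, 9 bases downstream, the same match began 15 bases before the start. Over all 6 genes, GAGGAA was found on either strand in the windows of Fcgr1, Fcgr3 and Fcgr4 and not in those of Fcgr2b, Fcer1g and Fcgrt. Of 27025 mouse promoter windows of the same length, 23.1% held it. The E-box letters CANNTG, bound by E proteins, were found in the windows of Fcgr1, Fcgr2b, Fcgr4 and Fcer1g, not in those of Fcgr3 and Fcgrt, and in 66.0% of all windows. These matches describe letters in the windows only.

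Fcgr3 and Fcgr2b were higher on the null arrays, Fcgrt was higher by less, and the intervals of Fcgr4 and Fcgr1 took in 0. Fcgr3 was 2.67-fold higher and Fcgr2b 2.68-fold higher in null than in wild type, and both were at least 2-fold higher in each array lot. Fcgrt was 1.92-fold higher, Fcgr4 1.37-fold and Fcgr1 1.11-fold. None of the 5 passed limma at an adjusted p under 0.05 over all genes (0 of 5, beside 0.118% of the 8445 genes, which were 10 genes, all lower in null). At an unadjusted p under 0.05, limma placed 3 of the 5 higher in null, beside 9.65% of all genes, and 0 lower, beside 6.83%, which in either direction makes 3 of 5 beside 16.5%.

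Fcgr3, the low-affinity activating receptor CD16, had 154577 signal units on null array 1 and 126715 on null array 2, against 55420.5 on wild-type array 1 and 49635 on wild-type array 2. Both null arrays were above both wild-type arrays, and in each genotype the lot 1 array read higher. The means were 140646 ± 19701 units in null and 52528 ± 4091 in wild type (SD, n = 2 each). The log2 difference, null minus wild type, was 1.42 (SE 0.20, 95% interval 0.87 to 1.97, limma adjusted p = 0.0975), with 1.48 in lot 1 and 1.35 in lot 2. Of all genes tested, 2.01% had a larger positive difference.

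Fcgr2b, the inhibitory IgG receptor, had 6545 units on null array 1 and 8567 on null array 2, against 2346 on wild-type array 1 and 3326 on wild-type array 2. The groups did not overlap, and here the lot 2 array read higher in each genotype, the reverse of Fcgr3. The means were 7556 ± 1430 units in null and 2836 ± 693 in wild type (SD, n = 2 each). The log2 difference was 1.42 (SE 0.28, 95% interval 0.66 to 2.18, limma adjusted p = 0.128), with 1.48 in lot 1 and 1.36 in lot 2. The 2 genes are closely related in sequence, and whether their probes separate them was not tested.

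Fcgrt, the neonatal Fc receptor chain, had 2302 and 2633 units on null arrays 1 and 2, against 1332 and 1229 on wild-type arrays 1 and 2. Again both null arrays were above both wild-type arrays. The means were 2468 ± 234 units in null and 1281 ± 73.0 in wild type (SD, n = 2 each). The fitted log2 difference was 0.94 (SE 0.18, 95% interval 0.44 to 1.45, limma adjusted p = 0.127). The difference was 0.79 in lot 1 and 1.10 in lot 2. B2m, which encodes beta-2 microglobulin, its partner, had 540187 and 713278 units in null against 497800 and 716409 in wild type, a log2 difference of 0.06 (limma adjusted p = 0.957).

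**Figure D1:**
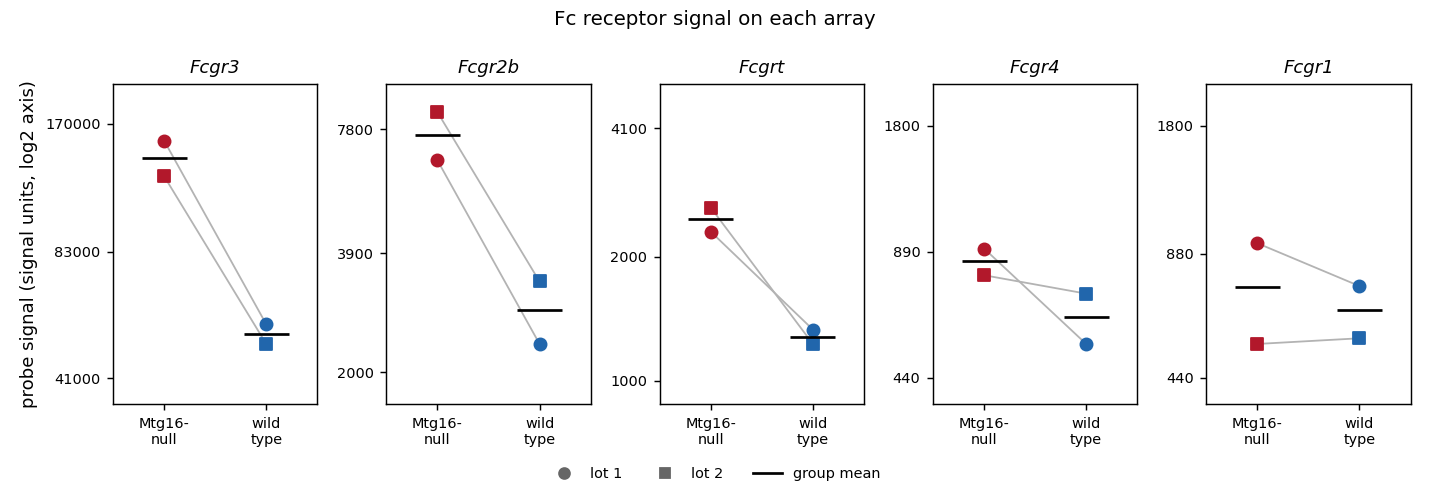
Probe signal of the 5 Fc receptor genes on each array (signal units, log2 axis, every panel spanning the same fold range), Mtg16-null left of wild type, circles for lot 1, squares for lot 2, black bars for group means and grey lines joining arrays of a lot. For Fcgr3, Fcgr2b, Fcgrt and Fcgr4 both null arrays lie above both wild-type arrays, and for Fcgr1 the groups overlap.

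Fcgr4, the activating receptor CD16-2, had 906 and 780 units on null arrays 1 and 2, against 531 and 704 on wild-type arrays 1 and 2. The groups did not overlap, but the difference was uneven between lots, 0.77 in lot 1 and 0.15 in lot 2 on the log2 scale. The fitted log2 difference was 0.46 (SE 0.23, 95% interval -0.17 to 1.09, limma adjusted p = 0.443). The interval takes in no difference and a 2-fold difference alike. Without null array 1 or wild-type array 1 the difference was 0.35 and 0.26, and without null array 2 or wild-type array 2 it was 0.57 and 0.66.

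Fcgr1, the high-affinity receptor CD64 of monocytes and macrophages, had 932 and 531 units on null arrays 1 and 2, against 734 and 548 on wild-type arrays 1 and 2. The groups overlapped, and the signal was lower in lot 2 in both genotypes. The log2 difference was 0.15 (SE 0.36, 95% interval -0.84 to 1.14, limma adjusted p = 0.903). It was 0.35 in lot 1 and -0.046 in lot 2, so the lots gave opposite signs, and the fitted difference turned negative without null array 1 (-0.26) or without wild-type array 2 (-0.06). Probes of 3 Y-linked genes, which female mice lack, read between 94.5 and 310 units, below each Fcgr1 and Fcgr4 value. No detection calls were used, so this does not show that either gene was detected.

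In 4 of the 5 genes the groups did not overlap with null higher, as they did in 22.6% of all genes tested, and 2 of the 5 were at least 2-fold higher in both lots, as were 3.26%. The median log2 difference of the 5 genes was 0.94, beside -0.02 over all genes. An exact permutation test over 2 arrays against 2 cannot give a p below 0.33, so none is given for a single gene. With the lot as a block 0 of the 5 passed limma, as did 0% of all genes (0 genes, against 10 without the block). The smallest adjusted p among the 5 with the block was 0.113, for Fcgr3 and Fcgr2b, and 3 of 5 were higher at an unadjusted p under 0.05, beside 13.3% of all genes. The call depended on the fit. Fcgr3 passed when limma let the spread follow the level (adjusted p = 0.0189), where 295 of all 8445 genes passed. Fcgr3 and Fcgr2b passed limma when only the brightest 25% of probes were tested (adjusted p = 0.0213 and 0.037), where 295 of 4967 genes passed.

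**Figure D2:**
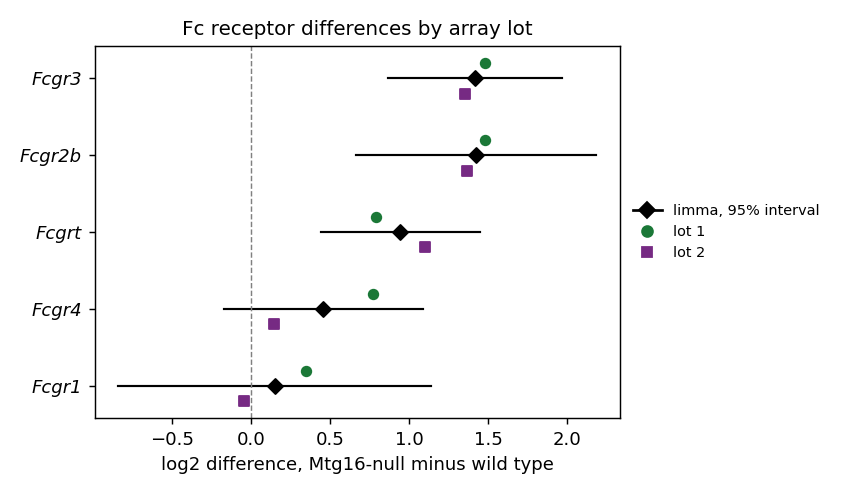
Log2 difference, Mtg16-null minus wild type, for each Fc receptor gene: diamonds and lines are the limma estimate with its 95% interval, circles lot 1 and squares lot 2. The lots lie close together for Fcgr3 (1.48 and 1.35) and Fcgr2b (1.48 and 1.36), farther apart for Fcgr4 (0.77 and 0.15), and on both sides of 0 for Fcgr1.

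The signal of an activating receptor relative to Fcgr2b was then followed within each array. The log2 ratio of Fcgr3 to Fcgr2b differed between null and wild type by -0.0006 in lot 1 and -0.01 in lot 2. It differed more between lots, at 4.56 in lot 1 and 3.89 in lot 2 on the null arrays, against 4.56 and 3.90 on the wild-type arrays. For Fcgr4 the change in this ratio was -0.71 in lot 1 and -1.22 in lot 2, and for Fcgr1 it was -1.13 in lot 1 and -1.41 in lot 2. The inhibitory gene thus differed more than Fcgr4 and Fcgr1 in both lots, and by nearly the same amount as Fcgr3. These differences between genes were not tested. Fcgr4 and Fcgr1 read only 531 to 932 units, against 2346 to 8567 for Fcgr2b and up to 310 for the Y-linked probes. The part of signal level in the Fcgr4 and Fcgr1 ratios was not tested either. The Fcgr3 ratio rests on pairing arrays within a lot, since with 1 array left out its change lay between -0.34 and 0.33.

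Among receptors for other antibody classes, the IgE receptor genes were lower in null, without passing the test. Fcer1a, the IgE-binding chain of mast cells and basophils, had 13390 and 14699.5 units on the null arrays, against 18478 and 24189 on the wild-type arrays. The log2 difference was -0.59 (SE 0.22, limma adjusted p = 0.309). Ms4a2, the beta chain of the same receptor, had a log2 difference of -0.56 in lot 1 and -0.55 in lot 2 (adjusted p = 0.719). Its lot 2 array read higher in each genotype, with 695 and 1441 units on null arrays 1 and 2, and 1027 and 2105 on wild-type arrays 1 and 2. The Ms4a2 difference thus rests on pairing arrays within a lot. With 1 array left out it was -0.029 (null array 1), -0.037 (wild-type array 2), -1.08 (null array 2) and -1.07 (wild-type array 1). Fcrla, an Fc receptor-like gene of B cells beside Fcgr2b, had a log2 difference of 0.33 (adjusted p = 0.723), and -0.047 without wild-type array 1. Of 13 listed genes 4 were tested. At an adjusted or at an unadjusted p under 0.05, 0 passed limma, beside 0.118% and 16.5% of all genes. The median was -0.27. It lay between -0.42 and -0.0077 with 1 array left out, and was 0.024 with the brightest 25% of probes and -0.59 without the filter.

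Receptors that signal through the Fcer1g chain included 2 C-type lectins with larger fitted differences than the Fc receptors. Whether these genes differed more than Fcgr3 and Fcgr2b was not tested. Clec4e (Mincle), a receptor for mycobacterial glycolipid, had 5176 and 5828 units on the null arrays, against 1577 and 1678 on the wild-type arrays, 3.38-fold higher (log2 difference 1.76, SE 0.18, limma adjusted p = 0.0744). Clec4d, its neighbour and partner, had 16173 and 17125 units in null against 5360 and 6046 in wild type, 2.92-fold higher (log2 difference 1.55, SE 0.18, adjusted p = 0.085). Both groups were well apart for each gene. Clec4n (dectin-2), a receptor for fungal mannan, differed by 0.28 on the log2 scale (adjusted p = 0.85, SE 0.46), and by -0.16 without wild-type array 2 or without null array 1. Of 15 listed adaptors and partnered receptors 5 were tested, and 2 were higher at an unadjusted limma p under 0.05, beside 9.65% of all genes. After adjustment 0 passed limma, beside 0.118% of all genes. The list also held B2m, the partner of Fcgrt, which had the lowest difference of the 5, 0.06. The median log2 difference of the 5 was 0.86, the value of 1 gene not named here, and 1.63 without wild-type array 2. Within lots the median was uneven, 1.59 in lot 1 and 0.28 in lot 2.

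Genes of the activating cascade below the receptors were mostly higher in null. Of 19 tested among 31 listed, 15 were higher in both lots and 3 lower in both lots, and 33.6% of all genes were higher in both. At an unadjusted p under 0.05 limma placed 7 of the 19 higher and 0 lower, beside 9.65% and 6.83% of all genes, and at an adjusted p under 0.05 it placed 0, beside 0.118%. Plcg2, the phospholipase that releases calcium, had 8590 and 7426 units on the null arrays, against 3489 and 3577 on the wild-type arrays (2.26-fold, log2 difference 1.18, SE 0.18, adjusted p = 0.103). Tec, a kinase of the cascade, was 2.14-fold higher (adjusted p = 0.176), and Vav1, an activator of Rac GTPases, 1.91-fold higher (adjusted p = 0.146).

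Syk itself, the kinase that binds the Fcer1g chain, had 12616 and 12640 units on the null arrays, against 8490 and 6954 on the wild-type arrays (log2 difference 0.72, adjusted p = 0.21). Its groups did not overlap. Lower in both lots were Pik3cd, a lipid kinase subunit gene (log2 difference -1.16, adjusted p = 0.46), the Src family kinase gene Fgr (-0.61, adjusted p = 0.325) and the regulatory subunit gene Pik3r1 (-0.41, adjusted p = 0.649). Leaving out 1 array moved Pik3cd between -1.87, when wild-type array 2 was dropped, and -0.46, when wild-type array 1 was. It moved Fgr between -0.85 (wild-type array 1 dropped) and -0.37 (wild-type array 2 dropped), and Pik3r1 between -0.80 (null array 2 dropped) and -0.020 (null array 1 dropped). The null signals of Pik3cd, 407 and 216 units, reached into the range of the Y-linked probes. The median of the list was 0.55.

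**Figure D3:**
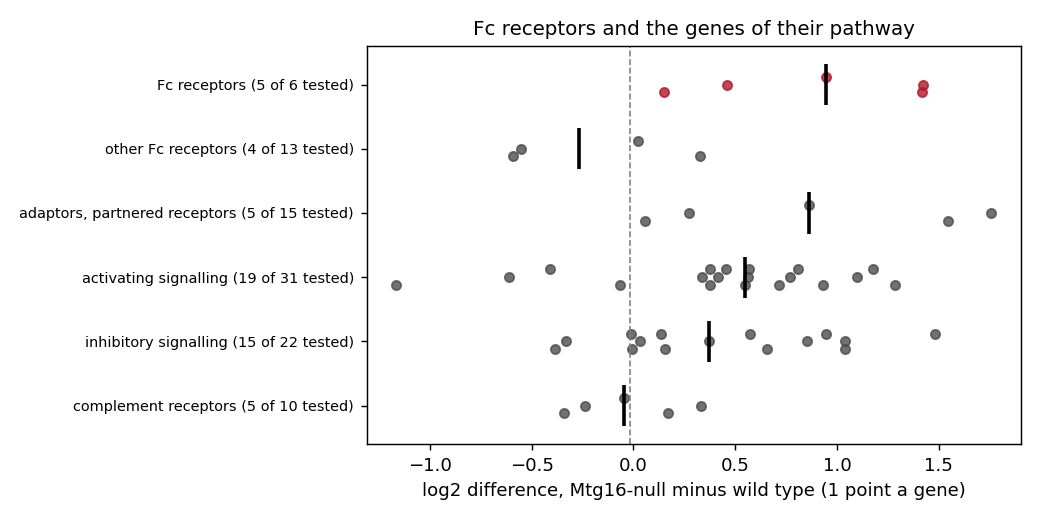
Log2 difference, Mtg16-null minus wild type, of each tested gene (1 point a gene) in 6 lists, the Fc receptors in red, with a black bar at each list's median and a dashed line at the median of all genes. The Fc receptor and activating signalling medians are 0.94 and 0.55, and the complement receptor median is -0.05. The list of adaptors and partnered receptors, which held B2m, has a median of 0.86, the value of 1 gene.

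Among inhibitory receptors and phosphatases, 7 of 15 tested genes had null arrays above wild-type arrays without overlap, and 0 the reverse, beside 22.6% and 23.1% of all genes. Clec12a, a myeloid lectin with an inhibitory motif, had 215943 and 205475 units on the null arrays, against 74425 and 76199 on the wild-type arrays (2.80-fold, log2 difference 1.48, SE 0.17, limma adjusted p = 0.084). Pecam1, an adhesion receptor with inhibitory motifs, was 1.93-fold higher (adjusted p = 0.166) and Cd300a, another inhibitory receptor, 1.80-fold higher (adjusted p = 0.284). The adaptor gene Dok1 was lower in both lots, with a log2 difference of -0.33 (adjusted p = 0.679), which became -0.088 when null array 1 was dropped, -0.097 for wild-type array 2, -0.57 for null array 2 and -0.56 for wild-type array 1. Of 15 tested among 22 listed, 9 were higher and 1 lower in both lots, and 33.6% of all genes were higher in both. The median was 0.37, or 0.16 once dim probes were let in. Limma's unadjusted p was under 0.05 with null higher for 4 of the 15, beside 9.65% of all genes. After adjustment 0 passed, beside 0.118% of all genes. Inpp5d, the phosphatase that Fcgr2b recruits, had 503 and 5423 units on the null arrays and 870 and 5342 on the wild-type arrays, so that its lots differed far more than its genotypes.

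Complement receptors, a list that held receptors for opsonins and for the fragment C5a, had a median difference near 0. Itgb2, the beta chain of complement receptor 3, differed by 0.17 on the log2 scale (adjusted p = 0.807, SE 0.23), and by -0.045 without wild-type array 2. C5ar2, a receptor for the fragment C5a, differed by -0.34 (adjusted p = 0.499, SE 0.20), and by -0.22 without wild-type array 2. Of 10 listed 5 were tested. At an adjusted or an unadjusted p under 0.05, 0 passed limma, beside 0.118% and 16.5% of all genes. The median was -0.05, or between -0.38 and 0.38 with 1 array left out.

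Genes beside the Fc receptors on the chromosome were set against them. On chromosome 1, from 8 protein-coding genes before Fcgr2b to 8 after Fcer1g, 9 genes other than the receptors were tested. Their log2 differences lay between -0.90 and 0.33 with a median of -0.06. At least 2-fold higher in both lots were 0 of the 9, beside 3.26% of all genes, so a count of 0 is near that share. The closest tested neighbours were Fcrla on one side and Sdhc, a subunit gene of mitochondrial complex II, on the other, with log2 differences of 0.33 and -0.06. Around Fcgrt on chromosome 7, 8 tested neighbours lay between -1.08 and 0.17, and around Fcgr1 on chromosome 3, 8 lay between -0.76 and 0.55. After adjustment limma called 0 of these 25 neighbours, beside 0.118% of all genes, and 1 had an unadjusted p under 0.05, beside 16.5%. This was Ppox, an enzyme gene of haem synthesis, at a log2 difference of -0.90.

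**Figure D4:**
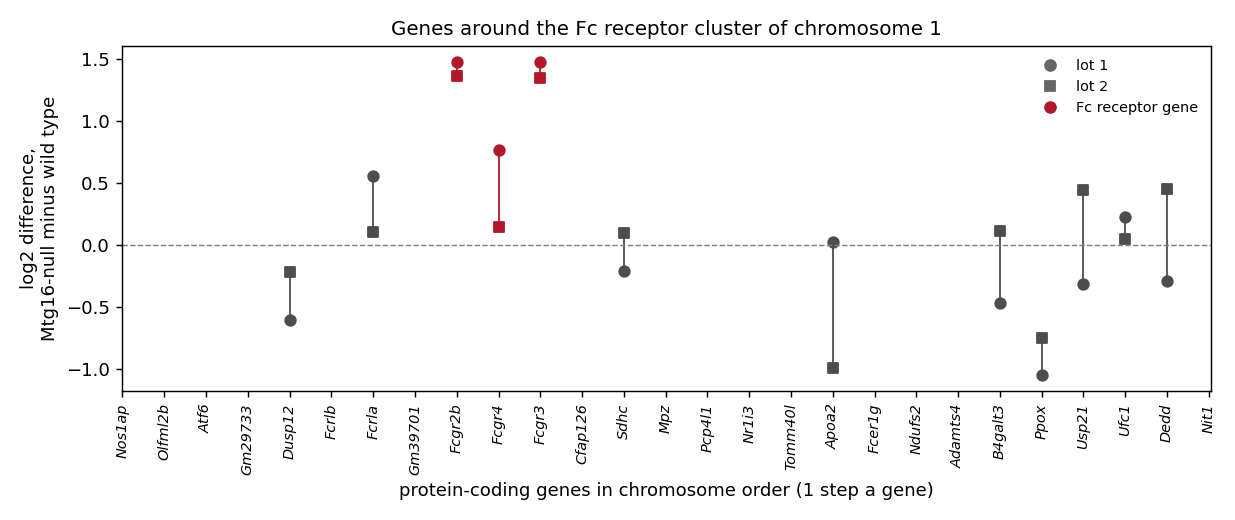
Log2 difference, Mtg16-null minus wild type, in lot 1 (circles) and lot 2 (squares) for tested genes along chromosome 1 from Nos1ap to Nit1, placed by gene order, with Fc receptor genes in red and untested genes named without a point. Fcgr2b and Fcgr3 are the only tested genes of this stretch above 1 in either lot, and Fcgr4 lies between them at 0.77 and 0.15.

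By Euclidean distance between gene-centred log2 values over the 4 arrays, the named genes most like Fcgr3 were Cst7, an inhibitor of lysosomal proteases (distance 0.0859), Dstn, an actin-severing protein gene (0.0934), and Ebi3, a cytokine subunit gene (0.106). Those most like Fcgr2b were Igsf6 (0.106), Slc16a9 (0.131) and Stard8 (0.135). Fcgr2b and Fcgr3 were not each other's closest match: Fcgr2b stood at place 415 from Fcgr3, at a distance of 0.669, where their opposite lot shifts count. Fcgrt was closest to Rspo1 (0.0386), Jdp2 (0.0424) and Ccng2 (0.0529), Fcgr4 to Sfxn3, Gnaz and Abraxas2 (0.0664 to 0.0755), and Fcgr1 to Zfp945, H2bc12 and Gpatch1 (0.108 to 0.143). With 4 arrays such likeness is a description only.

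Markers of several cell types that carry Fc receptors moved with genotype in the same samples. In whole RNA of a mixed sample, a change in the number of cells of a type and a change in RNA per cell cannot be told apart. The 7 granulocyte precursor genes summed to between 3460850 and 4112750 units on the null arrays and between 1602690 and 1689230 on the wild-type arrays, and 6 of the 7 were at least 2-fold higher in both lots, beside 3.26% of all genes. Among them Elane, neutrophil elastase, had a log2 difference of 2.23 (adjusted p = 0.0744). The 10 tested neutrophil genes were lower in null, 6 of them past limma, beside 0.118% of all genes, with sums of 144275 to 154608 units against 1335940 to 1451280. The 11 tested monocyte and macrophage genes summed to 430800 to 483538 units in null and to 258610 to 327186 in wild type. Of these, 6 were higher and 2 lower in both lots, and 33.6% of all genes were higher in both. At an unadjusted limma p under 0.05, 4 of the 11 were higher and 2 lower, beside 9.65% and 6.83% of all genes. The median log2 difference of the 11 was 0.31, with single genes from -1.31 to 1.58. The macrophage marker Adgre1, below the filter on dim probes, read 344 and 367 units in null, above the Y-linked range. In wild type it read 200 and 246 units, inside that range.

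Among B lineage genes, which matter for Fcgr2b, all 6 tested were higher in both lots, beside 33.6% of all genes. They summed to 77202.5 to 86176 units in null against 35852.5 to 42844 in wild type. Ms4a1 (CD20), a marker of mature B cells below the filter on dim probes, went the other way, with 68.0 and 143 units in null against 1444 and 1767 in wild type. The 8 tested mast cell and basophil genes, which go with Fcer1a and Ms4a2, summed to 656494 to 725033 units in null and to 856543 to 952707 in wild type. Of these, 5 were lower and 2 higher in both lots. Without overlap 4 were lower and 1 higher, beside 23.1% and 22.6% of all genes. The 7 tested T and natural killer cell genes summed to 217151 to 247897 units in null and to 73074 to 73750.5 in wild type, where Nkg7 made up most of the sum. All 4 tested eosinophil genes were at least 2-fold higher in both lots, beside 3.26% of all genes. They summed to 463978 to 542335 units in null and to 114334 to 124617 in wild type. Of eosinophil receptor genes below the filter on dim probes, Ccr3 read between 154 and 435 units on the 4 arrays. Il5ra read 1465 and 540 units on the null arrays, against 216 and 115 on the wild-type arrays. All 8 tested erythroid genes were lower in both lots and lower without overlap, beside 23.1% of all genes lower without overlap. They summed to 516722 to 586711 units in null against 785143 to 937074 in wild type. The part of these cell types in the Fc receptor differences was not tested. The defining T cell marker Cd4 read between 120 and 223 units on the 4 arrays, inside the Y-linked range.

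Facts of the arrays bear on every value above. Each array gave 33012 probe signals with a median of 470 units on all 4 arrays, since the deposited values share 1 distribution. The targeted gene Cbfa2t3 had 95520 and 118572 units on the null arrays, against 80854 and 100256 on the wild-type arrays (log2 difference 0.24, SE 0.23, limma adjusted p = 0.702). Since the place of its probe relative to the deletion is unknown here, this checks no label, and each direction given rests on the labels. The number of arrays limits the precision.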

How the data were processed

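RNA of lineage-negative mouse marrow, pooled from 4 mice an array, was labelled with digoxigenin and hybridised to single-colour Applied Biosystems arrays, per the labels' protocols. Each deposited value is a linear probe intensity, from 28.2 to 3093946 units. Once sorted, the 4 arrays agreed to within 0.286%, a shared distribution such as quantile normalization gives. Scanner software and background correction are not stated in the labels, and no detection calls were used.

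Of 33012 probes, 14411 had 1 gene symbol, 247 several and 18354 none in the platform annotation. Identifiers of 14402 were found in RefSeq (GRCm38.p6), with 0 symbols changed. No build is named for the array, so gene positions served only for the order of neighbours, and promoter windows are RefSeq's own. Signals under percentile 1 of all values, 75.8 units, were raised to it, log2 was taken, and the brighter 50% of probes (16506) were kept, with the brightest probe for each of 8445 genes. Null minus wild type was fitted with limma 3.58.1 (R 4.3.3, lmFit and eBayes, genotype as the only term, 2 residual and 2.11 prior degrees of freedom). P-values were adjusted by Benjamini-Hochberg over the 8445 genes. Intervals are 95% moderated intervals. A fold is 2 to the power of the log2 difference. The script was tested on simulated data with 200 changed genes. Figures used matplotlib 3.10.9 in Python 3.11.15.

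The series text makes the replicate number the array lot, which pairs the arrays; deviations of same-numbered arrays from their group means correlated at 0.50 across genes, which are not independent replicates. Named genes were the 6 receptors, up to 3 genes per direction of each list with the largest smaller within-lot difference, the 3 nearest genes of each receptor and Cbfa2t3. Syk, Inpp5d, B2m, Sdhc, Elane, Ms4a1, Adgre1, Cd4, Nkg7, Ccr3, Il5ra, Ppox and the dim genes Fcrl1, Fcamr, Fcrls, Fcrl5 and Pigr were named besides, after their values were seen. The members and lists were chosen with earlier results of these data known. Alternatives were the lot as a block, no filter and the brightest 25% of probes, no floor, cyclic loess, a variance trend, the mean over probes and each array left out.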

Additional observations from a re-analysis of the deposited data

Results flagged for a closer look

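The log2 difference of Fcgr1, null minus wild type, had opposite signs in the 2 array lots, 0.35 in lot 1 and -0.046 in lot 2. The difference between the lots was not tested, since each lot held 1 array of each genotype.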

How the results depend on the processing

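The Fc receptor differences kept their direction under the alternatives tried, except Fcgr1, which was -0.06 when wild-type array 2 was left out and -0.26 when null array 1 was, and which reached 0.56 over the left-out arrays. Fcgr3 lay between 1.27 and 1.56 and Fcgr2b between 1.17 and 1.67 over all alternatives. The number past limma depended on the setting. With the lot as a replicate block 0 of all genes passed (smallest adjusted p = 0.113, 2054 at an unadjusted p under 0.05) and without the filter 0 (0.101, 1512), against 295 when the brightest 25% were kept and 295 when the spread followed a trend with level. With any 1 array left out 0 passed (smallest adjusted p between 0.0609 and 0.148, 680 to 1438 at an unadjusted p under 0.05), the lone array being assumed to vary like the other group. The brightest 25% kept 2 of the 5 receptors, and both passed (Fcgr3 at adjusted p = 0.0213, Fcgr2b at 0.037; median 1.42). With the trend 1 passed, Fcgr3 (0.0189). Over all alternatives the adjusted p of Fcgr3 ran from 0.0189 to 0.516 and that of Fcgr2b from 0.037 to 0.503. Of the pathway lists, 4 genes passed with the brightest 25% (Clec12a, Clec4d, Plcg2 and Vav1) and 4 with the trend (Clec12a, Clec4d, Clec4e and Plcg2). Those settings test fewer genes or let the spread depend on level. Left-out arrays moved the change of the Fcgr3 to Fcgr2b ratio between -0.34 and 0.33 and that of Fcgr1 to Fcgr2b between -1.87 and -0.67. Leaving out arrays gave Fcrla between -0.047 and 0.71, negative without wild-type array 1, and Itgb2 between -0.045 and 0.38, negative without wild-type array 2. Clec4n lay between -0.16 and 0.72, negative at -0.16 when either null array 1 or wild-type array 2 was left out. Within lots Clec4n differed by 0.27 in lot 1 and 0.28 in lot 2, and a left-out array breaks this pairing. Fcrla likewise differed by 0.55 in lot 1 and 0.10 in lot 2, and Itgb2 by 0.053 and 0.28. For these genes too, a left-out array breaks the pairing. Each receptor had 1 probe, so the mean over probes left their values as they were. Fcgr1, Fcgr4 and Fcgrt have no value with the brightest 25%. The replicate block changed no receptor call. Detection calls were not used here, so the lower signals, Fcgr1 and Fcgr4 among them, are the least sure.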

Other observations

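Further Fc receptor genes had probes below the filter on dim probes and entered no test. Fcrl1, a B cell gene of the family, had 158 and 362 units on the null arrays, against 493 and 612 on the wild-type arrays. Fcamr, a receptor for IgM and IgA, had 115 and 90.2 units in null against 589 and 551 in wild type, so that 1 null value lay inside and the other under the range of the Y-linked probes. Fcrls, a receptor-like gene, had 187 and 148 units against 572 and 224, and Fcrl5 had 105 and 126 units against 165 and 289. All 4 values of Fcrl5 and 3 of the 4 of Fcrls also lay inside that range, so their order among arrays cannot be read. Pigr, the epithelial transporter of IgA and IgM, had 785 and 231 units in null and 182 and 449 in wild type, with overlapping groups.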
